A study of Mus musculus with 6 samples.

Results

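Pericytes of the mouse sciatic nerve 2 months after surgery were examined as a set of single cells picked by marker genes. A member cell had at least 3 UMIs (counted RNA molecules) summed over Kcnj8, Abcc9, Vtn and Higd1b, had more of these than of the smooth muscle genes Myh11, Tesc, Pcp4l1 and Pln, and had no UMI of Pdgfra, Sox10 or Cdh5, which mark fibroblasts, Schwann cells and endothelial cells. The rule found 426 members among the 10042 cells of the month 2 libraries, where a cell was a barcode with at least 1000 UMIs and less than 10% mitochondrial UMIs. In total, 11524 such cells were present in the 5 libraries analysed.

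The libraries were made by droplet sequencing of the 3′ ends of RNA from C57BL/6J wild-type mice that had received either partial sciatic nerve ligation (PSNL), in which part of the nerve is tied with a suture, or sham surgery. Ipsilateral nerve around the lesion was dissociated and sorted for live nucleated singlets without myelin, CD45 or Ter119, so most immune and erythroid cells were removed before sequencing. Each library pooled the cells of 4 nerves, taken from male and female mice in equal parts, and each of 2 batches held 1 sham and 1 PSNL library at month 2. With 2 libraries per group, every p-value below measures only the spread between these pools.

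Pericytes lie in the basement membrane of capillaries, in direct contact with endothelial cells. They are kept in place by endothelial PDGF-B acting on PDGFRβ, regulate capillary tone and permeability, and in nerve they are part of the blood-nerve barrier. They grade into the smooth muscle cells of arterioles, which carry a heavier contractile apparatus. Cells picked in the mirror image of the rule, by at least 3 UMIs of the smooth muscle genes, fewer of the pericyte genes and the same absence of Pdgfra, Sox10 and Cdh5, are called the smooth muscle gate here (1057 cells) and serve as the closest comparison.

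Values over the 4 libraries are always given in the order batch 1 sham, batch 1 PSNL, then batch 2 sham and batch 2 PSNL. The libraries held 9, 86, 189 and 142 members with a median of 4735, 2310, 3170 and 3456 UMIs per member. Sham batch 1 stood apart, because its 544 cells were the fewest and its 9 members gave only 40684 UMIs. Expression is given as UMIs of a gene per 1000000 UMIs (CPM) of the summed members of a library. The pairs of month 2 libraries shared 0 to 1 cell barcodes.

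The members were not of a single kind. Rgs5, a regulator of G-protein signalling and a standard pericyte marker that the rule did not use, had a UMI in 190 members (4, 49, 64 and 73 per library) and in none of the other 236 (5, 37, 125 and 69 per library). Rgs5 was not particular to members, since 538 of the 1057 cells of the smooth muscle gate (50.9%) also had a UMI. Members were 22.1% of the 859 month 2 cells with an Rgs5 UMI. The share of members with an Rgs5 UMI was 44.4%, 57.0%, 33.9% and 51.4%. Genes of a fibroblast list (Dcn, Lum, Pi16, Clec3b, Dpt, Gsn, Col15a1 and Scara5) took more than 10 of every 1000 UMIs in 225 of the 236 Rgs5-negative members (95.3%) but in only 2 of the 190 Rgs5-positive members (1.05%). The median was 45.0 per 1000 UMIs in Rgs5-negative and 1.09 in Rgs5-positive members, although their median depths were close at 3107 and 3026 UMIs. The label pericyte therefore fits the markers of the Rgs5-positive members, whereas 227 of all 426 members had fibroblast genes at a high level. This division was made after the values had been seen, and the levels of the 2 kinds of member were not tested against each other. The members are described as Rgs5-positive and Rgs5-negative from here on, and cells without an Rgs5 UMI were given no other cell type name.

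**Figure D1:**
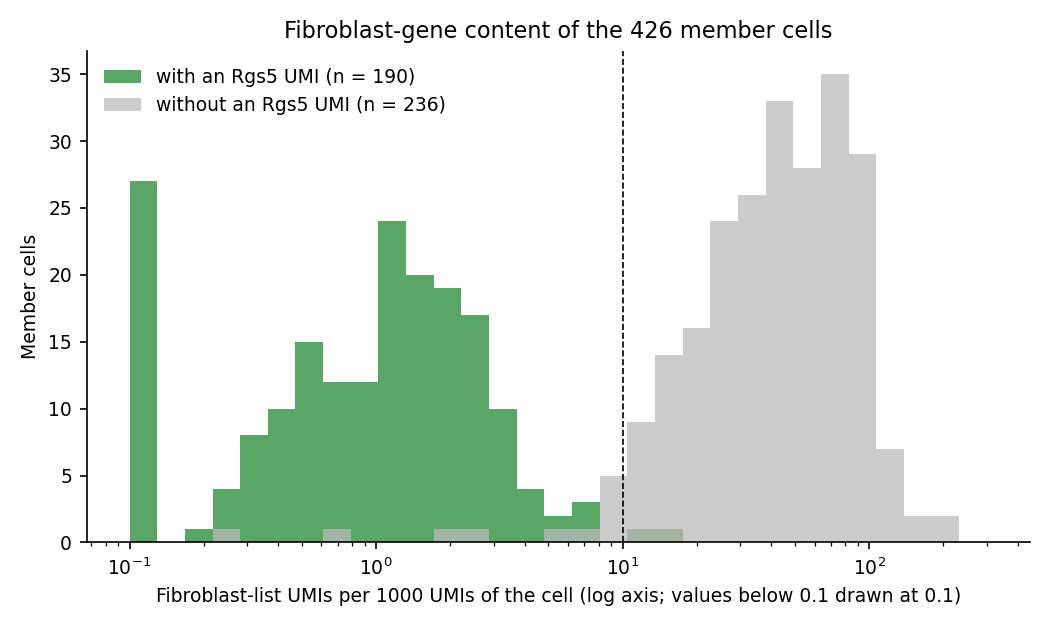
Number of member cells (vertical axis) by fibroblast-list UMIs per 1000 UMIs of the cell (horizontal log axis), for the 190 members with and the 236 members without an Rgs5 UMI. The dashed line marks 10 per 1000 UMIs, above which lie 2 Rgs5-positive and 225 Rgs5-negative members.

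The genes that chose the members divided in the same way, as a description only. Kcnj8 and Abcc9, the pore and the sulfonylurea receptor of the vascular ATP-sensitive potassium channel, had a UMI in 75.8% and 74.2% of Rgs5-positive members, and 108 of the 190 had both. Vtn, which encodes the matrix protein vitronectin, was found in 79.5% and the mitochondrial protein gene Higd1b in 61.6%. In Rgs5-negative members Vtn made up 93.3% of the marker UMIs, and 201 of the 236 (85.2%) had been picked by Vtn alone. Kcnj8 was found in 4.66% of them, Abcc9 in 11.9% and Higd1b in 0.847%. At least 2 of the 4 markers were present in 181 of the 190 Rgs5-positive and in 27 of the 236 Rgs5-negative members. The smooth muscle gene Myh11 of the rule had a UMI in 98 Rgs5-positive members (51.6%) and in 1 Rgs5-negative member. At least 1 UMI of the smooth muscle genes of the rule was present in 116 Rgs5-positive and 16 Rgs5-negative members.

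Among the 5614 month 2 cells above the same fibroblast level and without Sox10 or Cdh5 UMIs, 31.6% had a Vtn UMI and 37.0% had no Pdgfra UMI. Just inside the threshold, with a marker sum of 3, lay 107 members of which 15 had an Rgs5 UMI. Just outside, with a sum of 2, lay 198 cells of which 8 had one. The condition on Pdgfra, Sox10 and Cdh5 kept out 461 cells, 391 of them by Pdgfra. The condition on smooth muscle genes kept out a further 89 cells, and 78 of these had an Rgs5 UMI.

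The stretches just before the transcription start of these marker genes and of Il6 are shown because Kcnj8, Abcc9 and Rgs5 were found together in the same members, Vtn was also found without them, and Il6 is the mediator taken up below. Kcnj8 (chr6:142564837-142571614) and Abcc9 (chr6:142587862-142702315) are neighbours on the minus strand of chromosome 6, with 16247 bases between them. These positions are those of the gene annotation (GENCODE vM21), whereas the starts below are those of RefSeq, which lie elsewhere for some genes, so the stretch of Abcc9 reaches 41 bases and that of Vtn 29 bases into the annotated gene. Of the 6 genes looked up in the RefSeq table (GRCm38.p6), 5 were matched, and Higd1b was named only. Each stretch runs 5′ to 3′ over the 250 bases before the start, at chr6:142571615-142571864 (minus strand) for Kcnj8, chr6:142702275-142702524 (minus) for Abcc9, chr1:169655251-169655500 (plus) for Rgs5, chr11:78498870-78499119 (plus) for Vtn and chr5:30012864-30013113 (plus) for Il6. Capitals mark matches on either strand to 2 motifs that do not overlap each other here, the RBPJ motif TGGGAA of Notch signalling and the AP-1 motif TGANTCA.
Kcnj8: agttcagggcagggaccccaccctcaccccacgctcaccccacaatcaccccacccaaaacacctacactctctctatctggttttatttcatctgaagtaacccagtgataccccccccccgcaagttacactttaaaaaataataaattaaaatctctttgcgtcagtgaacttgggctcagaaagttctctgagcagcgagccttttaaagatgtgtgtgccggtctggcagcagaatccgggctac
Abcc9: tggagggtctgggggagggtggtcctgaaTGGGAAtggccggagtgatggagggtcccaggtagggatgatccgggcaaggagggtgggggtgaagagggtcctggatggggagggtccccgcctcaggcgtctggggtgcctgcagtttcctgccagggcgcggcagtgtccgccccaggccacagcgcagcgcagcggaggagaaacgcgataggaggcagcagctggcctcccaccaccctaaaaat
Rgs5: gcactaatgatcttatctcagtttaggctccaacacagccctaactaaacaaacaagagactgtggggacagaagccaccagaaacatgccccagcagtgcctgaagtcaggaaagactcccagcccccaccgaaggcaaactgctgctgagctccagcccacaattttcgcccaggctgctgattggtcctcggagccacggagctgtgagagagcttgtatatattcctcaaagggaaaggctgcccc
Vtn: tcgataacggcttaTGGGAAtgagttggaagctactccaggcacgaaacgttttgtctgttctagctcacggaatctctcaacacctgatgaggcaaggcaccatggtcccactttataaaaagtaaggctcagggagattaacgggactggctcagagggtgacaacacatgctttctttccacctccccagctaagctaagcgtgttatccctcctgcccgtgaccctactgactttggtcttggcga
Il6: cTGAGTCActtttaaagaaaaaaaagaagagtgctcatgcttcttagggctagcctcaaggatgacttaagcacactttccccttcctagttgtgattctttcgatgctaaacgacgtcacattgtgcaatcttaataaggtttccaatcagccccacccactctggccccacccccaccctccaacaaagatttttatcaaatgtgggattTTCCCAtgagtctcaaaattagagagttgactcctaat
Abcc9 and Vtn each held 1 RBPJ match, Kcnj8 and Rgs5 held neither motif, and Il6 held 1 AP-1 match, 249 to 243 bases before its start, and 1 RBPJ match on the reverse strand, 38 to 33 bases before it. Over the 27025 windows of this length in the table, RBPJ letters were present in 21.5% and AP-1 letters in 6.87%. A match describes letters in a window and not a bound factor.

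Rgs5-positive members had the receptor and signalling genes that define pericytes. Pdgfrb, the receptor for PDGF-B, stood at 535, 537, 638 and 712 CPM, against 214, 184, 242 and 343 CPM in the smooth muscle gate, so that its level was higher in the members of every library. Rgs5 itself, which made the division, stood at 3271, 3598, 5464 and 5409 CPM, against 744, 588, 1133 and 1201 CPM. Notch3, a receptor that vessels need to keep their mural cells, was present at 714, 451, 538 and 876 CPM and did not separate from the smooth muscle gate at 957, 541, 547 and 683 CPM. In sham batch 1 the values rest on 4 Rgs5-positive cells with 16816 UMIs, in which a single UMI is 59.5 CPM.

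Other genes of the pericyte identity list were far above their level in smooth muscle. Ifitm1, an interferon-induced membrane protein, reached 238, 867, 1228 and 914 CPM against 0, 7.17, 36.4 and 10.1 CPM. Steap4, a metalloreductase, reached 416, 399, 486 and 541 CPM against 23.7, 4.30, 26.0 and 18.0 CPM. Art3, an ADP-ribosyltransferase family gene, reached 178, 130, 286 and 236 CPM against 31.6, 10.0, 19.7 and 25.3 CPM, and Ebf1, an early B-cell factor, 3152, 3788, 2548 and 3287 CPM against 1266, 1128, 882 and 1029 CPM. None of these 4 genes overlapped between the classes. Cspg4, the NG2 proteoglycan often used to stain pericytes, went the other way at 0, 0, 17.4 and 30.5 CPM against 150, 128, 114 and 138 CPM. Mcam (CD146) was also lower, at 0, 86.7, 99.8 and 145 CPM against 380, 247, 165 and 184 CPM. In all, 19 of the 20 identity genes had at least 50 UMIs over both classes, and 8 of them were at least 2-fold higher in every library while 1 was lower. Over the 8326 genes that passed this minimum, 4.24% were higher and 2.28% lower by that measure, and the median log2 ratio was 1.34 for the list and 0.24 for all genes. Rgs5 is one of the 8, and without it 7 of 18 were higher and 1 lower, with a median of 1.1. The ratios carry a prior count of 0.5 in every sum, which lifts genes with few UMIs in the shallower class, here the members. With the prior count scaled to depth, so that 0 UMIs in both classes gives a ratio of 0, the calls over all genes were 241 higher and 364 lower in place of 353 and 190, and the median of all genes was -0.22. The identity list without Rgs5 then had 6 higher and 1 lower, with a median of 0.52. Without sham batch 1 the counts for the list were 9 and 2, against 5.33% and 4.47% of all genes. With Rgs5-negative members included, 602 of 9107 genes (6.61%) were higher and 368 (4.04%) lower than in the smooth muscle gate. With a mitochondrial limit of 5% the higher count was 66, and the smooth muscle gate of sham batch 1 then held 1 cell in place of 26. Because the rule picked both classes by expression, these ratios are descriptions and were not tested.

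**Figure D2:**
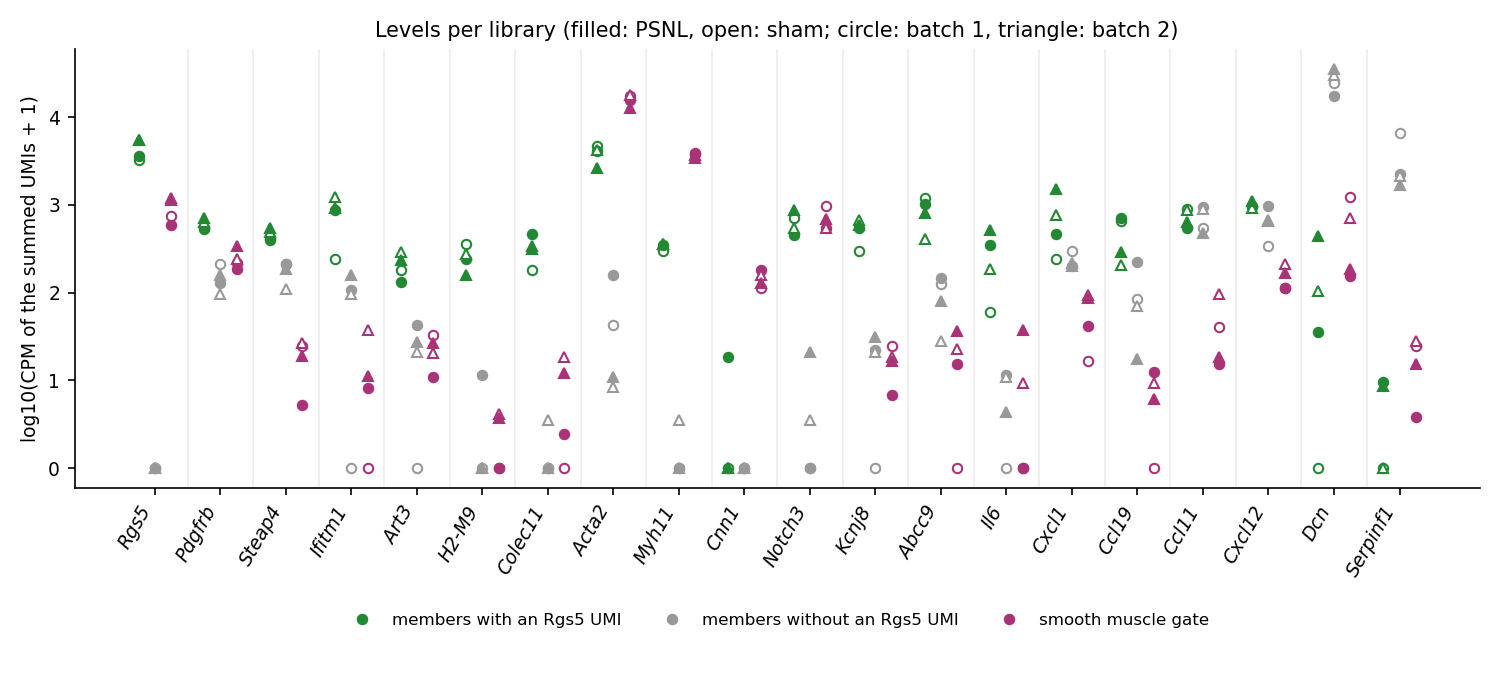
Level of 20 genes as log10(CPM + 1) in each month 2 library (filled symbols PSNL, open symbols sham; circles batch 1, triangles batch 2) in Rgs5-positive members, Rgs5-negative members and the smooth muscle gate. Kcnj8, Abcc9 and Myh11 chose the cells and Rgs5 divided the members, so their positions are set by the choice; of the others, Pdgfrb, Ifitm1, Art3, Il6 and Cxcl12 lie higher in Rgs5-positive members than in the smooth muscle gate in every library, Acta2 and Cnn1 lie lower, and Dcn and Serpinf1 are highest in Rgs5-negative members.

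The contractile apparatus was present in Rgs5-positive members at a low level. Acta2, the smooth muscle actin, stood at 4638, 4074, 4227 and 2632 CPM against 17466, 15692, 17771 and 12681 CPM in the smooth muscle gate. Tagln (transgelin) stood at 3806, 2887, 3489 and 2030 CPM against 16010, 15049, 15595 and 11351 CPM. Calponin, Cnn1, had only 2 UMIs in all Rgs5-positive members, against 572 in the smooth muscle gate. Over all genes, 2.28% were at least 2-fold lower than in the smooth muscle gate in every library and 4.24% higher. The 15 contractile genes with at least 50 UMIs had a median log2 ratio of -2.27. Of these, 11 were at least 2-fold lower in every library (13 without sham batch 1) and none was higher. Desmin (Des) was not among them, at 535, 303, 755 and 503 CPM against 823, 545, 961 and 769 CPM. Synpo2, an actin-bundling protein, was at a similar or higher level, at 1070, 303, 347 and 289 CPM against 403, 254, 264 and 260 CPM. Among the 15 genes furthest below the smooth muscle gate were the intermediate filament gene Synm, the voltage-gated potassium channel gene Kcna5 and Ntf3, which encodes the neurotrophin NT-3. They had no UMI in any Rgs5-positive member, against 206, 173, 225 and 290 CPM of Synm, 166, 109, 182 and 151 CPM of Kcna5 and 94.9, 126, 142 and 143 CPM of Ntf3 in the smooth muscle gate.

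Most ion channels and receptors for vasoactive signals did not differ by 2-fold from smooth muscle in every library. Both subunits of soluble guanylate cyclase, the receptor for nitric oxide, were present, with Gucy1a1 at 892, 650, 981 and 1021 CPM, below the 973, 1213, 1633 and 1840 CPM of smooth muscle in every library. Gucy1b1 stood at 0, 243, 391 and 427 CPM against 190, 248, 350 and 300 CPM and did not separate. Ednra, the endothelin A receptor, stood at 178, 234, 200 and 278 CPM and did not separate from smooth muscle at 253, 285, 179 and 262 CPM. The endothelin B receptor Ednrb stood at 0, 52.0, 187 and 99.0 CPM against 31.6, 10.0, 8.31 and 4.15 CPM, and the angiotensin receptor Agtr1a at 238, 34.7, 109 and 122 CPM against 15.8, 10.0, 12.5 and 7.37 CPM. Of 12 such genes with enough UMIs, 1 was at least 2-fold higher in every library (Agtr1a) and none lower. For all genes these shares were 4.24% and 2.28%. Without sham batch 1, Ednrb was also higher while Pde3a and P2rx1 were lower, as these 2 also were in every library with the scaled prior count. Kcnj11 and Abcc8, which form the pancreatic and neuronal type of the potassium channel, had no UMI in any member, while Kcnj8 and Abcc9 of the vascular type were genes of the rule.

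In the matrix genes, the difference from smooth muscle lay in a few members of each list. Sparc, a collagen-binding matrix protein, stood at 3509, 2904, 4974 and 4018 CPM against 577, 671, 1142 and 1029 CPM, and Nid1 (nidogen) at 59.5, 121, 122 and 107 CPM against 23.7, 12.9, 28.0 and 24.9 CPM. The type IV collagen gene Col4a1 did not separate, at 0, 373, 564 and 720 CPM against 293, 351, 340 and 347 CPM. The basement membrane list as a whole had 2 of 10 genes higher and none lower, and Lama5 was lower without sham batch 1. In the interstitial list 5 of 13 genes were higher, and 4 with the scaled prior count. By the same measure, at least 2-fold in every library, 4.24% of all genes were higher and 2.28% lower. Col3a1 stood at 892, 1040, 998 and 1150 CPM against 23.7, 57.4, 131 and 90.7 CPM, Postn at 357, 225, 221 and 240 CPM against 0, 10.0, 9.35 and 21.2 CPM, and Fst, which encodes the activin inhibitor follistatin, at 1725, 1292, 964 and 1466 CPM against 23.7, 47.3, 89.3 and 47.4 CPM. The Rgs5-negative members, in which fibroblast genes are high, had Col3a1 at 9385, 6900, 3791 and 4632 CPM, whereas Fst was lower there at 168, 410, 175 and 133 CPM.

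Most measured cytokine and chemokine genes were higher in the members than in smooth muscle, and only some of them were higher in Rgs5-positive than in Rgs5-negative members. In Rgs5-positive members, 7 of the 9 mediator genes with enough UMIs were at least 2-fold higher than in smooth muscle in every library. These were Il6, Ccl2, Ccl11, Ccl19, Cxcl1, Cxcl10 and Cxcl12, and 4.24% of all genes were higher by this measure. The median log2 ratio of the list was 3.61. Ccl2 and Cxcl10 had no UMI in sham batch 1 in either class, where the ratio came from the added prior count, and with the scaled prior count 5 of the 9 remained. In Rgs5-negative members 7 of 11 measured genes were higher than in smooth muscle (Ccl7, Ccl11, Ccl19, Cxcl1, Cxcl12, Il33 and Spp1), against 6.7% of 8625 genes, and 6 without Spp1 with the scaled prior count. Between the members themselves, 3 of 12 (Il6, Ccl19 and Il34) were higher in Rgs5-positive members in every library, against 4.67% of 4673 genes, and Il33 was lower. Il6, a cytokine that acts on sensory neurons, stood at 59.5, 347, 187 and 518 CPM against 0, 0, 8.31 and 36.4 CPM in smooth muscle and 0, 10.5, 9.98 and 3.32 CPM in Rgs5-negative members. Cxcl1, a neutrophil attractant, stood at 238, 459, 755 and 1516 CPM against 15.8, 40.1, 93.5 and 84.8 CPM in smooth muscle. The levels of both genes were higher in Rgs5-positive members than in smooth muscle in every library. Set against all other month 2 cells, 3 of 17 mediator genes were at least 2-fold higher in the members as a whole in every library. None was lower, and 1.63% of 16433 genes were higher by this measure. The median log2 ratio was 0.54 for the list and 0.17 for all genes. With the scaled prior count the 3 genes were Il6, Ccl19 and Cxcl1.

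Ccl19, a ligand of CCR7 on lymphocytes and dendritic cells, stood at 654, 702, 204 and 289 CPM in Rgs5-positive members and at 0, 11.5, 8.31 and 5.07 CPM in smooth muscle. Of the 1090 month 2 cells with a Ccl19 UMI, 72 were Rgs5-positive members, and 975 were neither members nor in the smooth muscle gate. Ccl11 (eotaxin) was as high in Rgs5-negative as in Rgs5-positive members, at 545, 945, 901 and 481 CPM and 892, 546, 868 and 628 CPM, with 39.6, 14.3, 96.6 and 17.5 CPM in smooth muscle. Cxcl12, a chemokine of perivascular niches, stood at 951, 971, 929 and 1116 CPM in Rgs5-positive and at 335, 966, 669 and 656 CPM in Rgs5-negative members. In Rgs5-positive members Spp1 had 5 UMIs, against 165 in Rgs5-negative members, and Cx3cl1, Mmp9 and Ptgs2 had none.

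With every cell thinned to 1000 UMIs, an Il6 UMI was found in 11.1% of Rgs5-positive members (95% interval 6.97% to 16.4%), in 0 of 236 Rgs5-negative members (3 counts, the limit for a count of 0 at this depth, would be 1.27%) and in 1.04% of the smooth muscle gate. Among the 1600 cells with UMIs of Sox10 but not of Pdgfra or Cdh5, which are called Sox10-positive cells here, 0 had an Il6 UMI after thinning. Before thinning the share was 23.7% of Rgs5-positive members, 2.12% of Rgs5-negative members (5 cells) and 1.32% of the smooth muscle gate, and it was still 0 in Sox10-positive cells. Over all month 2 cells, 202 had an Il6 UMI, and 45 of these (22.3%) were Rgs5-positive members, which were 190 of 10042 cells. Another 138 of the 202 were neither members nor in the smooth muscle gate. For Cxcl1 the thinned shares were 30% in Rgs5-positive members, 6.78% in Rgs5-negative members, 2.93% in smooth muscle and 0.563% in Sox10-positive cells. For Cxcl10 they were 5.79% in Rgs5-positive members, 0.424% in Rgs5-negative members, 0.378% in smooth muscle and 4.00% in Sox10-positive cells. The Rgs5-positive share was thus close to that of Sox10-positive cells and above those of the other classes. Its difference from background was not tested. The thinned Ccl2 share was 2.63% and 2.97% in Rgs5-positive and Rgs5-negative members and 0.188% in Sox10-positive cells. Median depths were 3026, 3107, 3554 and 2652 UMIs in Rgs5-positive members, Rgs5-negative members, smooth muscle and Sox10-positive cells.

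Genes of the vessel growth list were mostly near their smooth muscle level, with 2 of 12 higher and 1 lower. Over all genes 4.24% were higher and 2.28% lower. With the scaled prior count, 2 genes of the list were higher and 2 lower (Tgfb2 and S1pr3). Angpt2, an angiopoietin that loosens contacts of pericytes and endothelium, stood at 59.5, 121, 78.1 and 118 CPM against 7.91, 34.4, 33.2 and 35.5 CPM, and the co-receptor Nrp1 at 297, 338, 213 and 347 CPM against 0, 28.7, 68.5 and 57.6 CPM. The sphingosine-1-phosphate receptor S1pr3 was lower, at 0, 0, 8.68 and 11.4 CPM against 277, 184, 171 and 160 CPM. Immediate-early genes, which are switched on within minutes by stimulation and also by enzymatic dissociation, summed to 12785, 19254, 27252 and 39213 CPM in Rgs5-positive members and to 6020, 5750, 9981 and 19324 CPM in smooth muscle. Atf3 was among them at 59.5, 832, 1011 and 1356 CPM, and Fos at 2973, 3884, 5664 and 7123 CPM. Over the libraries their sum had the same order as Cxcl1, whereas Il6 was lower in sham batch 2 than in PSNL batch 1, and the part of tissue handling in these levels was not tested.

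Several interferon-response and MHC class I genes were higher than in smooth muscle in both kinds of member. In Rgs5-positive members 5 of 10 measured genes were at least 2-fold higher in every library (4 with the scaled prior count) and none lower. In Rgs5-negative members 4 of 9 were higher. The shares of all genes that were higher in this way were 4.24% in Rgs5-positive and 6.7% in Rgs5-negative members. None of 7 differed in this way between the 2 kinds of member, and none of 12 was higher in the members than in all other cells. Ifitm3, a membrane protein that restricts viral entry, stood at 3152, 3676, 3481 and 2537 CPM against 372, 708, 868 and 717 CPM in smooth muscle and 3310, 3224, 2286 and 1711 CPM in Rgs5-negative members. H2-D1, an MHC class I heavy chain, stood at 357, 555, 521 and 823 CPM against 63.3, 112, 183 and 177 CPM in smooth muscle and 419, 399, 489 and 557 CPM in Rgs5-negative members. The non-classical MHC gene H2-M9 (chr17:36639285-36642666, minus strand) was the gene with the highest ratio to smooth muscle, with a mean log2 ratio of 6.76 ± 1.17 (SD, n = 4), or 6.27 ± 0.93 with the scaled prior count. Of the 47 month 2 cells with an H2-M9 UMI, 39 (83.0%) were Rgs5-positive members, 1 was an Rgs5-negative member and 3 were in the smooth muscle gate. MHC class I genes are near-identical copies of each other, and how the counting assigned reads between them is uncertain. Colec11, a secreted collectin, had a mean log2 ratio of 5.62 ± 1.55 (SD, n = 4), or 5.28 ± 1.46 with the scaled prior count, and was found in 123 cells, of which 83 (67.5%) were Rgs5-positive members. Set against all other month 2 cells, the genes with the highest ratios in the members as a whole, among those with a member UMI in every library, included H2-M9, Colec11, Adra2a (the alpha-2A adrenergic receptor), Cyp4b1 and Ccdc68. By ratio 268 of 16433 genes (1.63%) were at least 2-fold higher in every library, but only 124 of them had a UMI in the members of every library, and 111 genes were higher with the scaled prior count. The count of genes at least 2-fold lower was 98, and 1029 with the scaled prior count. The proliferation marker Mki67 had no UMI in any member, nor had the cell cycle genes Ccnb1 and Cdk1. The list of 6 cell cycle genes summed to 24.6, 14.2, 3.17 and 8.86 CPM in members. In smooth muscle it summed to 23.7, 7.17, 3.12 and 14.3 CPM.

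Some markers of other cells were present in Rgs5-positive members. The endothelial list summed to 535, 277, 208 and 251 CPM, above the 237, 91.8, 127 and 109 CPM of smooth muscle in every library. Of its genes, Cldn5 and Kdr had no UMI, while Flt1 had 51 and Emcn 27 UMIs. The Schwann cell list summed to 0, 17.3, 52.1 and 491 CPM, against 0, 22.9, 56.1 and 170 CPM in smooth muscle. Ptprc, which encodes CD45, had no UMI.

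Rgs5-negative members carried the program of the fibroblast list. Dcn (decorin) stood at 24300, 17549, 29955 and 35049 CPM, against 0, 34.7, 104 and 438 CPM in Rgs5-positive members. Col1a1, a chain of type I collagen, stood at 6578, 4999, 3257 and 7855 CPM against 119, 182, 234 and 240 CPM. Gsn (gelsolin), Clec3b and Pi16 followed the same order, and all 8 genes of the list were at least 2-fold lower in Rgs5-positive members in every library, where 4.52% of 4673 genes were. The genes furthest lower in Rgs5-positive members were Dcn (mean log2 ratio of Rgs5-positive to Rgs5-negative members -8.24), Serpinf1 (-8.16), Apod (-7.84) and complement C3 (-7.37). Apart from Rgs5, those furthest higher were the predicted gene Gm13889 (6.94), Acta2 (6.90), Synpo2 (6.79), the matrix protein gene Tinagl1 (6.57), Tagln (6.22) and Notch3 (6.03).

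The perineurial list (Cldn1, Slc2a1, Lypd2 and Sfrp5) summed to 0, 1134, 1737 and 978 CPM in Rgs5-negative members, so cells with barrier genes were among them. In PSNL batch 2 the muscle satellite cell list summed to 153 CPM there, with Pax7 in 2 cells. Pdgfrb was still present in Rgs5-negative members, at 209, 126, 94.8 and 156 CPM, while Notch3 was at 0, 0, 2.50 and 19.9 CPM. Steap4 was shared by both kinds of member, at 209, 210, 110 and 186 CPM in Rgs5-negative members.

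The first comparison of PSNL with sham asked whether injury altered how many of these cells were found. Members were 1.65%, 3.70%, 5.57% and 3.76% of the cells of a library. The sham libraries were at once the lowest and the highest, and the mean was 3.61% ± 2.77 in sham and 3.73% ± 0.0452 in PSNL (SD, n = 2 each; difference of 0.116 percentage points, exact permutation test, two-sided, p = 1). Within batch 1 the PSNL share was 2.04 points above sham, and within batch 2 it was 1.81 points below. Without sham batch 1 the difference was -1.84 points, so its direction rested on that library. No exact test of 2 against 2 libraries can give a p below 0.333.

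Members among members and smooth muscle gate together were 25.7%, 24.0%, 43.5% and 21.7%, and the PSNL libraries were both below the sham libraries (difference of -11.8 points, exact permutation test, two-sided, p = 0.333, the smallest possible). The difference was -1.76 points in batch 1 and -21.9 points in batch 2. Without sham batch 2 it was -2.90 points. The same share for Rgs5-positive members and the smooth muscle gate was 13.3%, 15.2%, 20.7% and 12.5%, which did not separate the groups. Its difference was 1.88 points in batch 1 and -8.25 points in batch 2 (exact permutation test, p = 0.667). Rgs5-positive members alone were 0.735%, 2.11%, 1.89% and 1.93% of cells. In batch 2 these shares lay within each other's 95% intervals, and the interval in sham batch 1 ran from 0.201% to 1.87%. The share of Rgs5-positive cells among members was higher in PSNL in both batches, by 12.5 and 17.5 points (means 39.2% in sham and 54.2% in PSNL, exact permutation test, two-sided, p = 0.333, the smallest possible).

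**Figure D3:**
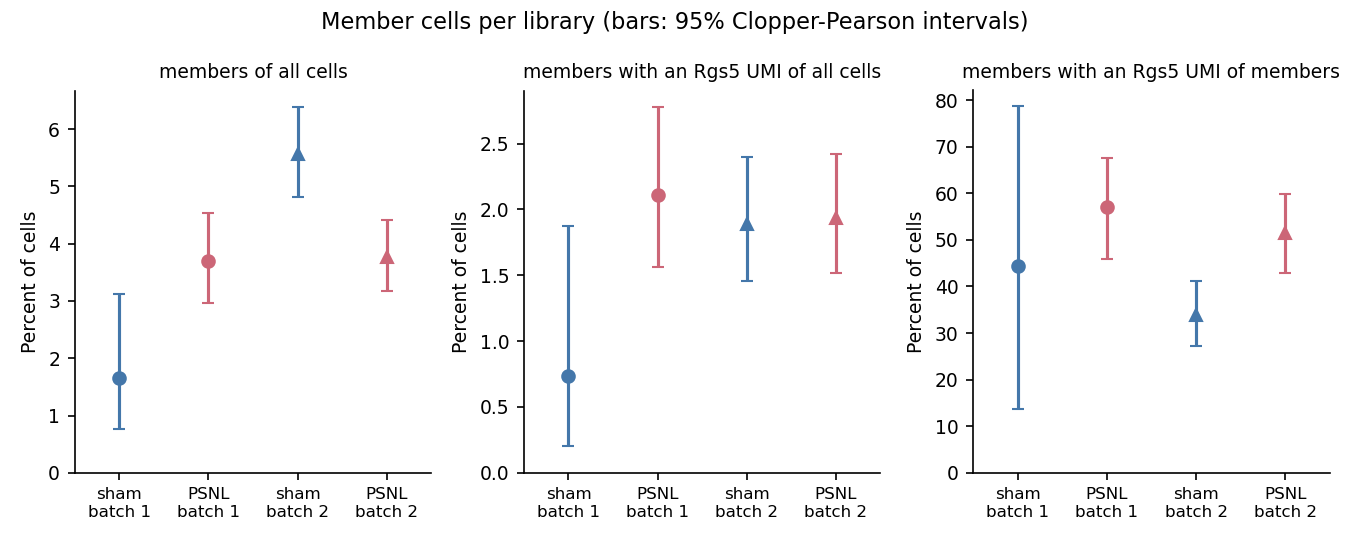
Percent of cells per library with exact binomial 95% intervals (bars) for members among all cells, Rgs5-positive members among all cells and Rgs5-positive members among members. The right panel shows the PSNL libraries (57.0% and 51.4%) above the sham libraries (44.4% and 33.9%), with a wide interval in sham batch 1.

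The second comparison asked which genes differed between PSNL and sham within the members. Of 5854 genes tested with edgeR's quasi-likelihood test on the UMI sums of all members, 1 was called higher in PSNL (0.0171%) and 0 (0%) lower at an adjusted p under 0.05, whereas 96 had an unadjusted p under 0.05 and DESeq2 called 0. Since the share of Rgs5-positive cells among members was higher in both PSNL libraries, the number of Rgs5-positive cells is given beside the genes of lowest p.

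The called gene was Ccl21a (chr4:42772860-42773993, minus strand), a ligand of CCR7 made by lymphatic endothelium and by stromal cells of lymphoid tissue. It stood at 0, 157, 0 and 51.4 CPM (log2 difference 8.18, SE 1.41, edgeR adjusted p = 0.00491). All 62 UMIs came from 5 cells, 4 of them Rgs5-positive, with 33 UMIs in the 1 cell of PSNL batch 1 and up to 22 in 1 of the 4 cells of PSNL batch 2. Taken over the groups, 62 of 774717 PSNL UMIs against 0 of 671756 sham UMIs was at least 17.9-fold higher in counted UMIs. The UMIs of 1 cell are not independent counts, so this bound describes these pools and is no bound on an effect of PSNL. This bound was 1.09-fold without sham batch 2, 11.5-fold without PSNL batch 1, 16.8-fold without sham batch 1 and 35.1-fold without PSNL batch 2. Only 6 month 2 cells had a Ccl21a UMI at all. It was called in 10 of 16 alternative analyses (adjusted p from 1.51e-08 to 1.0), and without PSNL batch 1 its adjusted p was 1.0. Ccl21a has near-identical copies in the mouse genome, so the counted copy is uncertain.

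Il6 had the second lowest p among the genes that were higher in PSNL in both batches. It stood at 24.6, 195, 74.5 and 243 CPM over all members, so both PSNL libraries were above both sham libraries (log2 difference 1.81, SE 0.53, unadjusted p = 0.00132, edgeR adjusted p = 1.0). Of the 50 members with an Il6 UMI, 45 were Rgs5-positive. In Rgs5-positive members alone, where sham batch 1 was left out of the fit for having 4 cells, the log2 difference was 1.30 (SE 0.64, edgeR adjusted p = 0.999), and the lone sham library was assumed to vary like the 2 PSNL libraries. Their share with an Il6 UMI was 25%, 20.4%, 20.3% and 28.8%, which did not separate the groups. The higher Il6 level in PSNL was not called in any of 16 alternatives.

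Rgs4, a regulator of G-protein signalling whose gene lies 45663 bases from Rgs5, stood at 0, 95, 65.0 and 243 CPM (log2 difference 1.74, SE 0.57, edgeR adjusted p = 1.0), and all 70 members with a UMI were Rgs5-positive. Plac8 stood at 0, 109, 33.3 and 115 CPM (1.99, SE 0.61), with 30 of 63 such members Rgs5-positive. Xist, the RNA that silences an X chromosome in females, stood at 73.7, 128, 20.6 and 117 CPM, with 33 of 64 such members Rgs5-positive. Over all cells Xist was at 71.2, 140, 74.5 and 191 CPM, higher in both PSNL libraries. The Y-linked gene Ddx3y stood at 0, 19.0, 53.9 and 24.8 CPM in members and at 56.8, 35.9, 58.5 and 33.4 CPM over all cells, lower in both PSNL libraries there. The part of the mix of male and female cells in other genes was not tested.

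The lowest p among genes that were lower in PSNL in both batches belonged to genes of the Rgs5-negative members. Pcolce2, a procollagen processing enhancer, stood at 393, 23.8, 58.6 and 23.0 CPM (log2 difference -2.61, SE 0.72), and 1 of 33 members with a UMI was Rgs5-positive. Penk, which encodes the opioid precursor proenkephalin, stood at 344, 99.7, 309 and 113 CPM (-1.52, SE 0.48), with 2 of 75 such members Rgs5-positive. Ly6a (Sca-1) stood at 1352, 385, 414 and 142 CPM (-1.60, SE 0.53), with 12 of 100. Rbp4 and Ly6c1 followed with log2 differences of -2.51 (SE 0.84) and -1.64 (SE 0.58), and 2 of 18 and 2 of 45 such members were Rgs5-positive. In each of these 5 genes both PSNL libraries were below both sham libraries, and none passed the adjusted threshold in edgeR (adjusted p = 1.0). The share of Rgs5-negative cells among members was lower in PSNL in both batches, and its part in these differences was not tested.

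The count of called genes changed with single libraries. It was 7 higher and 1 lower without sham batch 1, 17 higher and 18 lower without sham batch 2, and 0 without PSNL batch 1. With the batch as a replicate block, 3 were higher (Sfrp2, Ccl21a and Malat1) and 2 lower (Gsn and Ly6a). Sfrp2 stood at 49.2, 19.0, 11.1 and 328 CPM, so it was lower in PSNL in batch 1 and higher in batch 2. Of the Sfrp2 UMIs of PSNL batch 2, 131 of 185 came from 1 cell.

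**Figure D4:**
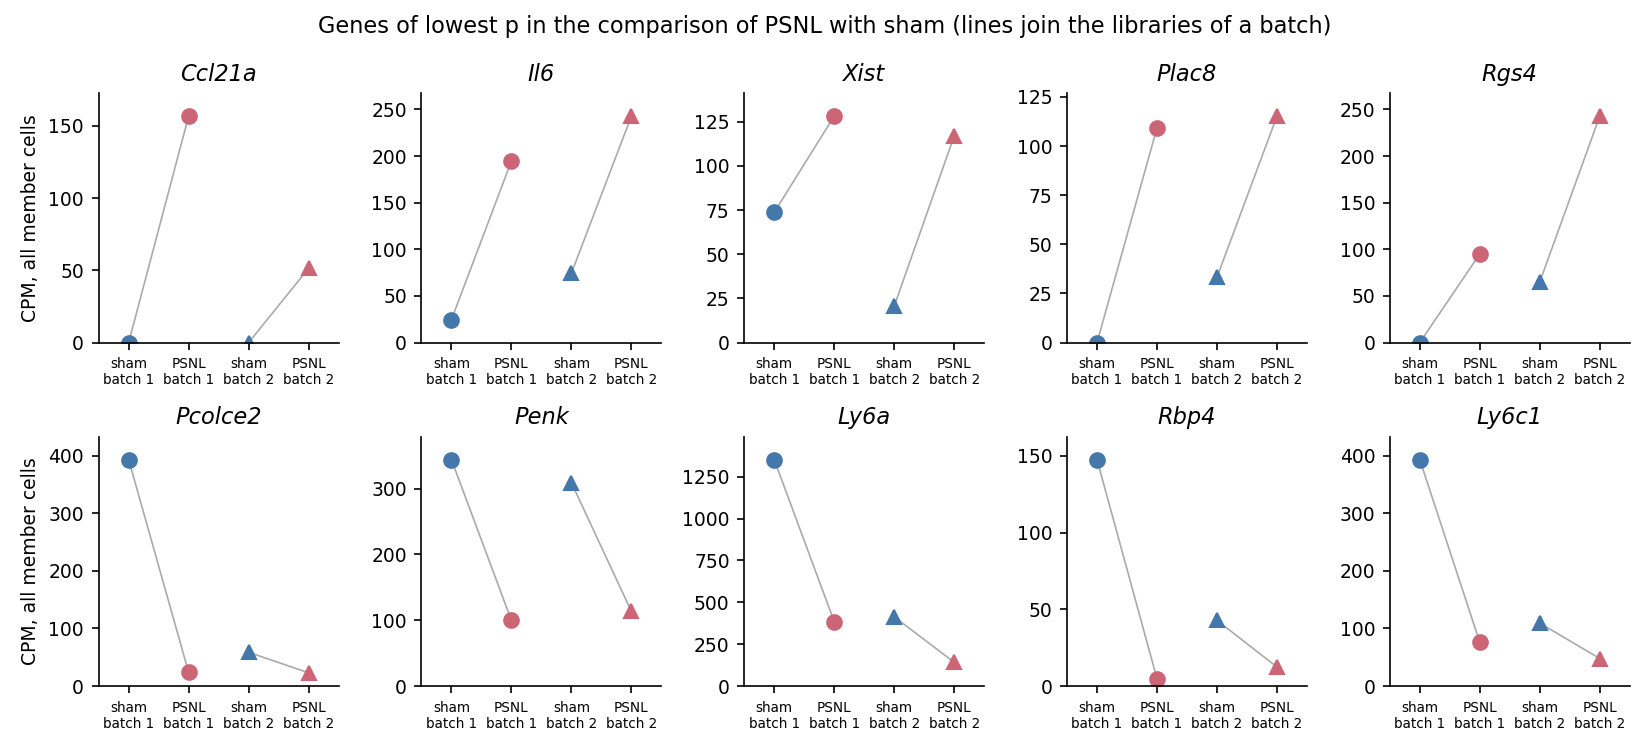
CPM of all members of each library for the 5 genes of lowest p in each direction among genes that moved the same way in both batches; lines join the sham and PSNL library of a batch. Il6 and Rgs4 come mostly from Rgs5-positive members, and Pcolce2, Penk, Ly6a, Rbp4 and Ly6c1 from Rgs5-negative members.

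In the main fit no gene of any list was called, and Ccl21a is in none of the lists. With the batch as a replicate block, Gsn of the fibroblast list was called lower. Over all genes tested, both PSNL libraries were above both sham libraries in 17% and below in 13%, and the median log2 difference was 0.05. Of 18 tested identity genes, 6 lay wholly above (Gpx3, Mcam, Ifitm1, Steap4, Pdgfrb and Cox4i2) and 1 below (Ndufa4l2), with a median of 0.38. Members with a UMI were Rgs5-positive in 52 of 55 for Mcam, 67 of 68 for Cox4i2, 140 of 177 for Ifitm1, 129 of 203 for Steap4, 142 of 208 for Pdgfrb and 126 of 140 for Ndufa4l2. In the same members the fibroblast list summed to 41122, 18246, 32543 and 27711 CPM, lower in both PSNL libraries, and 2 of its 8 genes lay wholly below (Gsn and Clec3b) and none above, with a median of -0.13. The part of the mix of both kinds of member in these values was not tested. Gpx3, a secreted glutathione peroxidase, had the lowest p of the list, at 393, 893, 414 and 943 CPM (log2 difference 1.24, SE 0.46, edgeR adjusted p = 1.0). Of 171 members with a Gpx3 UMI 101 were Rgs5-positive, and 77 of the 188 UMIs of PSNL batch 1 came from 1 Rgs5-negative cell. Gpx3 was higher in Rgs5-negative than in Rgs5-positive members in 3 of 4 libraries, the exception being sham batch 2. Of 12 mediator genes, 4 lay above (Il6, Cxcl10, Cxcl12 and Il33) and 3 below (Ccl7, Csf1 and Il34), with a median of 0.48. Cxcl1 stood at 270, 342, 414 and 812 CPM, where PSNL batch 1 lay below sham batch 2. Of 22 immediate-early genes, 5 lay above and none below, also with a median of 0.48. Of 9 channel and receptor genes 2 lay above, of 12 contractile genes 4, and of 8 interferon genes none in either direction.

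The third comparison asked whether the PSNL difference in members was the same as in the smooth muscle gate. In the smooth muscle gate, 0 of 7988 genes (0%) were called in either direction by edgeR, with 103 at an unadjusted p under 0.05, and DESeq2 called 1 lower (Dcn). With the batch as a replicate block, edgeR called 1 gene lower there. The difference of the 2 PSNL effects was tested in 1 model with the library as a block, and 6 of 8636 genes (0.0695%) were called by edgeR, all with a more positive effect in members. DESeq2 called 0.

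Dcn had the lowest p of the 6 (difference of log2 effects 2.22, SE 0.26, edgeR adjusted p = 3.79e-13). In the smooth muscle gate it stood at 1234, 152, 714 and 184 CPM, and in members at 14256, 7955, 19056 and 18942 CPM, so the PSNL libraries were lower in smooth muscle while in batch 2 the members stayed level. Single cells carried much of it in the smooth muscle gate, with 148 of 156 Dcn UMIs of sham batch 1 in 1 cell, 202 of 687 in sham batch 2 and 81 of 106 in PSNL batch 1. The matrix gene Efemp1 (4.60, SE 0.89, edgeR adjusted p = 0.000481), the apolipoprotein gene Apod (1.94, SE 0.36, 0.000218), Igfbp6 (1.68, SE 0.36, 0.00462) and the glypican gene Gpc3 (1.97, SE 0.44, 0.0100) had the same direction. Igfbp6 and Gpc3 were each called in 8 of 15 alternatives, and Igfbp6 turned to -0.79 with free RNA subtracted. In the smooth muscle gate of sham batch 1, 1 cell held all 6 UMIs of Efemp1 and 1 cell held 28 of the 32 UMIs of Gpc3. Cells above the fibroblast level of 10 per 1000 UMIs made up 1 of 26 cells (3.85%) of the smooth muscle gate in sham batch 1, 2 of 273 (0.733%) in PSNL batch 1, 10 of 245 (4.08%) in sham batch 2 and 6 of 513 (1.17%) in PSNL batch 2, lower in PSNL in both batches, and their part in these differences was not tested. These 5 came mainly from Rgs5-negative members: 30 of 263 members with a Dcn UMI were Rgs5-positive, 4 of 136 with Efemp1, 12 of 227 with Apod, 11 of 228 with Igfbp6 and 47 of 228 with Gpc3. In Rgs5-positive members alone, without sham batch 1, Dcn (3.29, SE 0.45, edgeR adjusted p = 1.58e-09) and Igfbp6 (3.83, SE 0.45, 1.78e-13) were called and Apod and Gpc3 were not. There 1 cell of PSNL batch 2 held 176 of 223 Igfbp6 UMIs and 1 cell 56 of 115 Dcn UMIs. The chemokine gene Cxcl10 was the exception, with 13 of 17 such members Rgs5-positive (4.03, SE 0.70, edgeR adjusted p = 3.15e-05). It stood at 0, 133, 98.2 and 136 CPM in members and 0, 0, 75.8 and 9.21 CPM in smooth muscle. Of its 77 UMIs in the members of PSNL batch 2, 40 came from 1 cell, and of its 73 UMIs in the smooth muscle gate of sham batch 2, 64 came from 1 of 2 cells. Without PSNL batch 2 none of the 6 was called, without PSNL batch 1 the count was 3, and without sham batch 1 or sham batch 2 it was 15 or 13.

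**Figure D5:**
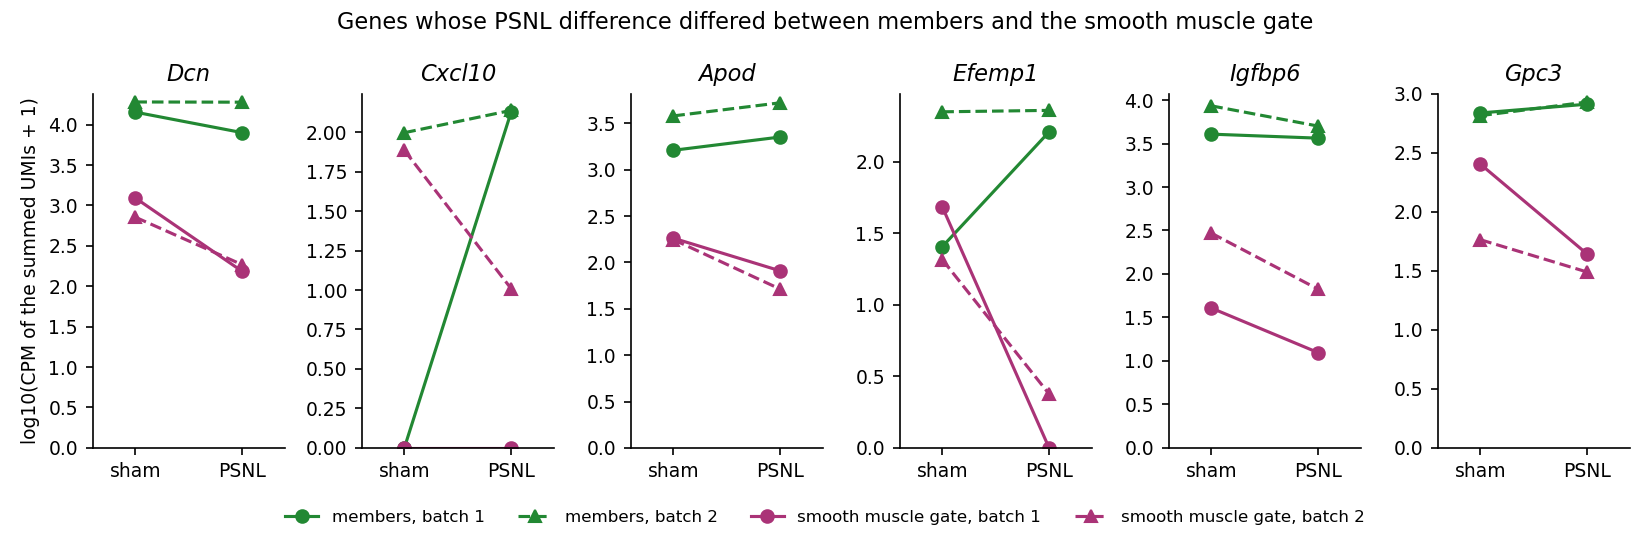
Level as log10(CPM + 1) in sham and PSNL for the 6 genes whose PSNL effect differed between members and the smooth muscle gate by edgeR, with batch 1 as solid and batch 2 as dashed lines. The smooth muscle lines fall from sham to PSNL in both batches for 5 genes, and for Cxcl10 in batch 2 only.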

How the data were processed

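Droplet 3′ RNA sequencing of sciatic nerve cells was analysed in 5 libraries; the sham library of day 5 was not analysed here. The deposited matrices hold UMI counts per gene and barcode, made by the authors with kallisto 0.46.2, bustools 0.40.0 and Seurat 4.3 on GRCm38 per the submitters' processing notes; how near-identical copies and strand were treated is not given in the sources used here. The files list 55421 gene IDs, of which 55154 were paired with a symbol. A barcode counted as a cell from 1000 UMIs upward, if mitochondrial UMIs were below 10%.

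Counts were summed per library over the members, and over the smooth muscle gate, and PSNL was compared with sham by edgeR 4.0.16 (quasi-likelihood test, TMM, filterByExpr, Benjamini-Hochberg adjustment, threshold 0.05, R 4.3.3). The interaction had the library as a block. Level ratios used a prior count of 0.5 in each sum, or one scaled to the depth of the sum, and genes with at least 50 UMIs over both classes, and were not tested. Detection was compared after thinning each cell to 1000 UMIs (seed 1). Intervals are exact Clopper-Pearson at 95% and, like the limits of 3 counts for a count of 0, cover counting error only. The total was 4099617, 7509261, 16626617 and 17481607 UMIs per library. Scrublet (scanpy 1.11.5) marked 28 of 10042 cells (0.279%), and no cell was removed as a doublet. In sham batch 1 it marked 7 of 544 cells (1.29%, with 0.435% expected from the cell number). One of the marked cells there was an Rgs5-positive member. In each of the other month 2 libraries it marked fewer than expected, and whether it worked was not tested.

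The labels say that the libraries of batch 1 shared a sort, preparation and sequencing run and those of batch 2 a day, chip, preparation and sequencing, so batch pairs them; deviations of same-batch libraries from their group means correlated at 0.180 in members and 0.195 in the smooth muscle gate. Named genes were the called genes, the 5 of lowest p in each direction that moved alike in both batches, the 15 of largest ratio and the gene lists. The members and lists were chosen with earlier results of these data known, and the division by Rgs5 after seeing the data. Steps were tested on simulated data. Alternatives were other cell and marker minimums, a 5% mitochondrial limit, removal of Scrublet calls, subtraction of 10% free RNA, other scaling and filters, DESeq2 1.42.0, the batch block and leaving out each library. Some genes are not reported here.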

Additional observations from a re-analysis of the deposited data

Results flagged for a closer look

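The PSNL effect differed between members and the smooth muscle gate in 6 genes by the edgeR interaction test, always more positive in members. The difference of the log2 effects was 2.22 for Dcn, 4.03 for Cxcl10, 1.94 for Apod, 4.60 for Efemp1, 1.68 for Igfbp6 and 1.97 for Gpc3. DESeq2 called none of them, and the call of each was lost without PSNL batch 2.

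The share of members among all cells moved in opposite directions in the 2 batches, by 2.04 percentage points in batch 1 and by -1.81 points in batch 2 from sham to PSNL. The difference between the batches was not tested.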

How the results depend on the processing

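Among single genes, 236 of 259 alternative values of the PSNL comparison in members and 60 of 89 of the interaction kept their direction and call. Of the level ratios, 177 of 208 stayed within the spread of the libraries. A gene called in neither fit counted as kept if its direction held, and only 1 PSNL gene was called in the main fit. Of the counts of called genes, 18 of 34 alternatives in members and 17 of 30 of the interaction stayed the same or close. The cause of the changes was not tested. In members, 1 gene was higher and 0 lower in PSNL. The higher count was 0 with at least 2 marker UMIs, without Scrublet calls, with free RNA subtracted, with DESeq2 and in Rgs5-negative members, and 3 with no filter and in Rgs5-positive members; leaving out libraries gave 0 to 17. Sham batch 1 was not in the fit of Rgs5-positive members, and there, as wherever a library was left out, the lone library of a group was assumed to vary like the others. The lower count was 1 with at least 5 marker UMIs and in Rgs5-positive members, and 0 to 18 with a library left out. With the batch as a replicate block, 3 were higher and 2 lower in members, and 1 was lower in the smooth muscle gate.

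In the smooth muscle gate (0 and 0), 1 was higher with no filter and 0 to 8 with a library left out; 7 were lower below 5% mitochondrial UMIs, 10 with no filter, 1 with DESeq2 and 0 to 12 with a library left out. The interaction (6 higher, 0 lower) gave 2 higher below 5% mitochondrial UMIs, 11 with at least 2 marker UMIs, 10 with free RNA subtracted, 0 with DESeq2 and 0 to 15 with a library left out; 2 were lower with at least 2 marker UMIs and in Rgs5-positive members, 1 with free RNA subtracted and 0 to 2 with a library left out. Igfbp6 turned to -0.79 with free RNA subtracted.

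The difference in the share of members (0.116 points) was -0.257 with at least 2000 UMIs, -0.285 with at least 2 and -0.0157 with at least 5 marker UMIs, and -1.84 to 2.07 with a library left out. Genes 2-fold higher than smooth muscle in every library fell from 602 to 66 below 5% mitochondrial UMIs, and were 353 (190 lower) in Rgs5-positive members; with the prior count scaled to depth, chosen after seeing the data, they were 490, and 451 in place of 368 were lower. Ccl2 in PSNL (log2 difference 0.01) was -0.037 with at least 2000 UMIs, -0.37 with at least 5 marker UMIs, -0.012 without Scrublet calls, -0.014 with DESeq2 size factors, -0.039 with no filter, -0.34 with DESeq2, and -1.57 to 0.42 with a library left out. Ccl11 was -0.48 to 0.021 with a library left out, and Cxcl1 -0.19 in Rgs5-negative members.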

Other observations

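In the PSNL library of day 5, which no comparison used, the same rule found 65 members, and 61 of them (93.8%) had an Rgs5 UMI. With 1 library and no sham analysed beside it, its values are given without a comparison. The cells of this library had a median of 10946 UMIs, where the highest median of a month 2 library was 5081. Its shares of cells were not thinned, so they cannot be set against those of month 2. Mki67, a proliferation marker, had a UMI in 10 members (105 CPM, with 30 of 78 UMIs in 1 cell), and Tnc, which encodes the matrix protein tenascin-C, in 26 (243 CPM). Col4a1, a type IV collagen chain, was found in all 65 members at 2945 CPM. The chemokine gene Ccl2 had a UMI in 19 members (29.2%, 107 CPM) and Il6 in 9 (87.2 CPM, with 44 of 65 UMIs in 1 cell). Timp1, an inhibitor of matrix proteases, was found in 38 members at 209 CPM. H2-M9 was found in 18 members (27.7%) at 61.7 CPM, and Ccl21a had 0 UMIs, which allows up to 4.03 CPM.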
